A study of Rattus norvegicus with 12 samples.

Results

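The genes of cholesterol and fatty acid synthesis were examined in livers of rats dosed for 5 days with A-998679, an oxadiazole that the study characterized as an activator of the aryl hydrocarbon receptor (AhR). The members were 36 listed genes, each read from the probe sets annotated to it alone. Such probe sets numbered 58 among the 29176 on the array and covered 35 of the 36 genes, of 13643 named genes in all. The sterol arm held 23 genes, of which 22 were measured with 36 probe sets, and the lipogenic arm held 13 genes, all measured, with 22 probe sets. Hmgcs1 had no probe set of its own. The 12 animals were male Sprague-Dawley rats, 3 a group, which received 30, 100 and 200 mg/kg of A-998679 daily by oral gavage, or the vehicle hydroxypropylmethylcellulose alone. Every rat, controls included, was fasted overnight before its liver was taken. The top dose is 200 mg/kg in the sample titles and in the study's methods, while a free-text label gives a higher figure. Each liver was hybridized to its own Affymetrix RAE230 2.0 array.

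Hepatocytes make cholesterol from acetyl-CoA through mevalonate, isoprenoids, squalene and lanosterol. The enzymes are controlled together by SREBP-2, the product of Srebf2, which SCAP carries out of the endoplasmic reticulum when membrane sterols are low and which the INSIG proteins hold there when sterols are high. Fatty acids are made from citrate by ATP citrate lyase, acetyl-CoA carboxylase and fatty acid synthase, under SREBP-1c, a product of Srebf1, and the carbohydrate response element binding protein ChREBP, the product of Mlxipl. Elongases and desaturases then shape the chains, and acyltransferases place them on glycerol.

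Values are log2 intensities, so that a difference of 1 is a doubling. Array medians lay between 5.21 and 5.26, and correlations between arrays were 0.913 to 0.938 within groups and 0.91 to 0.941 between groups. The hepatocyte markers were bright (Alb, albumin, averaged 13.15), but all 9 measured of 10 listed had lower means with 200 mg/kg than with vehicle. Their median log2 difference was -0.22. At an unadjusted p of at most 0.05 there were 5, against 8.74% of all probe sets and 10.5% of named genes, and 0 passed after adjustment in limma. Their summed intensity was 48100 to 57600 in rats given 200 mg/kg and 57700 to 61500 in vehicle rats. For the 9 lists of other cell types the summed ranges of these 2 groups overlapped. In whole liver, fewer cells of a type and less RNA per cell cannot be told apart. The part of the marker difference in the results on the members was not tested.

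RefSeq promoter windows (build GRCr8, 250 bases before to 50 after the start of a gene) were matched for 28 of the 36 members, and 7 short motifs were searched on both strands. CCAAT, the box bound by NF-Y, was in the windows of 23 of the 28 members (82.1%) and of 39.6% of all 27457 genes with a window. A core of sterol regulatory elements, CACNCCAC, was in 5 members (17.9%) and in 6.25% of all genes. The longer TCACNCCAC, which contains that core, was in 0 members and in 1.25% of all genes. The E-box CACGTG was in 4 members (14.3%) and in 7.08% of all genes. TNGCGTG, the core of the element bound by AhR with ARNT, was in 5 members (17.9%) and in 5.45% of all genes. The shorter GCGTG, which lies inside it, was in 17 members (60.7%) and in 32.4% of all genes. A nuclear receptor core, AGGTCA, was in 3 members (10.7%) and in 16.9% of all genes. These are matches of letters and not evidence of binding. Windows are printed for 4 members. Thrsp and Mlxipl had the smallest p of the lipogenic arm with 200 mg/kg and over all doses. Insig1 had the smallest p of the sterol arm between the highest and the lowest dose. Msmo1 (methylsterol monooxygenase) has 3 CCAAT boxes, though Mvk and Nsdhl have more. Capitals mark the CCAAT box, the sterol element core, the E-box and the AhR core on either strand. In Insig1 and in Acat2 the sterol element core and the AhR core overlap, so the counts of these motifs share letters there. Mlxipl has another window shifted by a few bases.
Thrsp, chr1:161138915-161139214, minus strand: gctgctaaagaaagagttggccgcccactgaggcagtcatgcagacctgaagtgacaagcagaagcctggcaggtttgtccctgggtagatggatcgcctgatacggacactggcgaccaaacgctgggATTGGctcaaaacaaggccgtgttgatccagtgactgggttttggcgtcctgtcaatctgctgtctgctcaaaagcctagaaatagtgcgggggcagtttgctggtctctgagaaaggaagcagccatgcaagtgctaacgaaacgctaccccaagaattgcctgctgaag
Mlxipl, chr12:27213607-27213906, minus strand: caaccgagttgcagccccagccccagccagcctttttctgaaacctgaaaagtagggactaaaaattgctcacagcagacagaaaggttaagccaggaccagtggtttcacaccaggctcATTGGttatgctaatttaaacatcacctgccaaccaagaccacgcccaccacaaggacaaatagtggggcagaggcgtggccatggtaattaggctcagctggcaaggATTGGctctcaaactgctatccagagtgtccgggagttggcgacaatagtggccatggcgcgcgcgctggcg
Insig1, chr4:8057720-8058019, minus strand: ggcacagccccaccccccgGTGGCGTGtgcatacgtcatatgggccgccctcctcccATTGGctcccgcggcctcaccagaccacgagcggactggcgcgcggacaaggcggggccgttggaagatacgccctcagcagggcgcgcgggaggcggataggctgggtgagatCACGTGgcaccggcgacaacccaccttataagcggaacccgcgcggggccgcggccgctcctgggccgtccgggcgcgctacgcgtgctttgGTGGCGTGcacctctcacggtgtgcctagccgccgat
Msmo1, chr16:29746863-29747162, plus strand: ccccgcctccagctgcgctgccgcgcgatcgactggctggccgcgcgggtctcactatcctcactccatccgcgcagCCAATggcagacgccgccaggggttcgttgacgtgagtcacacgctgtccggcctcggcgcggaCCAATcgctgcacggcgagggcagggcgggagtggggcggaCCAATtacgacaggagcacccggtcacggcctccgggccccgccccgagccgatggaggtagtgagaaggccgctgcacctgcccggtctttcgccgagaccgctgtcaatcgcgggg

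With 200 mg/kg against vehicle, 0 of the 35 genes passed the adjusted threshold of 0.05 in limma, a test of every probe set with a pooled spread. Of all probe sets tested 0.211% passed, and of named genes with 1 probe set each 0.34%. At an unadjusted p of at most 0.05 there were 5 of 35 members (14.3%), against 8.74% of all probe sets and 10.5% of named genes. In the sterol arm 2 of 22 were higher and 0 lower, and in the lipogenic arm 1 of 13 was higher and 2 were lower. The median log2 difference was 0.17 in the sterol arm and 0.14 in the lipogenic arm, beside 0.006 over all named genes. Between rats of a group, the median of an arm had an SD of 0.17 in the sterol and 0.2 in the lipogenic arm. By direction alone, 14 sterol genes had a higher and 8 a lower mean, and 9 lipogenic genes had a higher and 4 a lower mean. Over all named genes 6569 had a higher and 6374 a lower mean. The difference was under 0.5 either way for 25 of the 35 genes. Precision was limited, with a median width of the 95% interval of 0.92 in the sterol arm and 1.06 in the lipogenic arm.

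**Figure D1:**
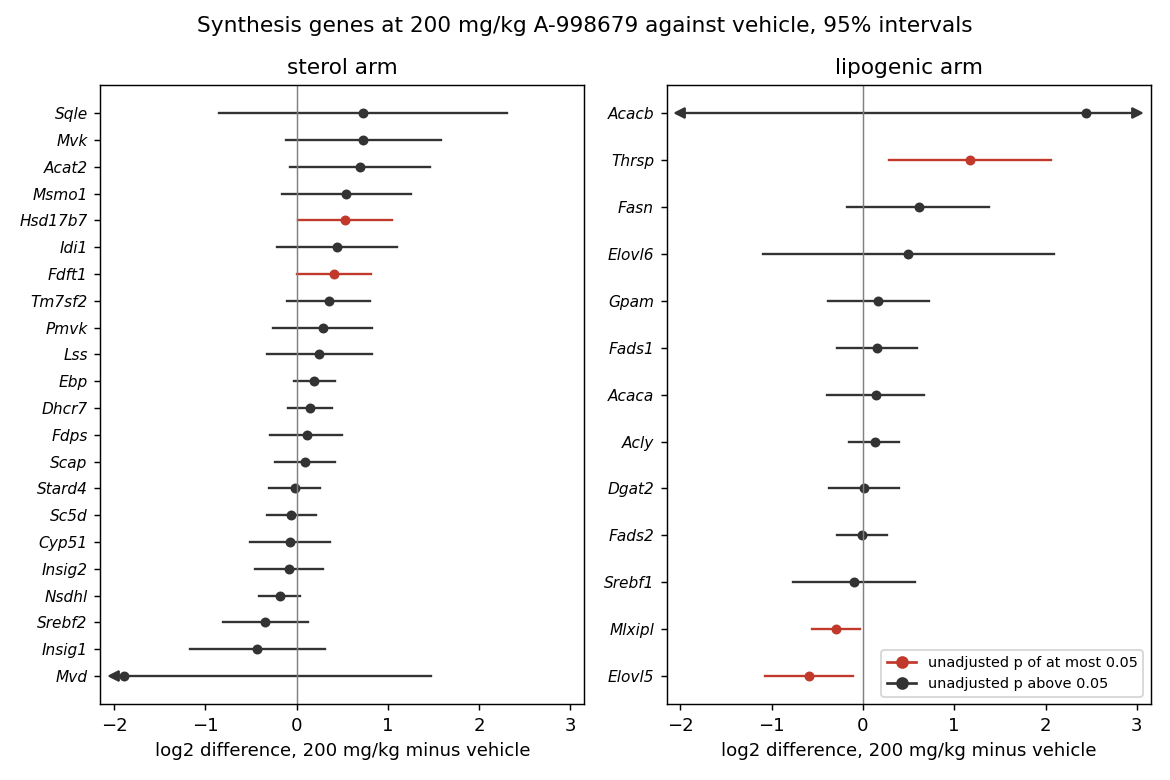
Log2 difference (200 mg/kg minus vehicle, x axis) of each measured gene of the sterol arm (left) and lipogenic arm (right), 3 rats a group, with points for estimates, lines for 95% intervals and red for an unadjusted p of at most 0.05. Intervals that pass the axis end in arrowheads (Mvd, -5.25 to 1.47, and Acacb, -3.36 to 8.24), and 30 of the 35 intervals include 0.

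Among the sterol enzymes, Hsd17b7 and Fdft1 had intervals above 0 with 200 mg/kg before adjustment. Hsd17b7, the 3-ketosteroid reductase of the demethylation steps, measured 5.86, 5.92 and 5.95 in vehicle rats, 6.93, 5.87 and 6.38 with 30 mg/kg, 6.22, 5.99 and 5.58 with 100 mg/kg, and 6.53, 6.44 and 6.35 with 200 mg/kg. All 3 rats of the top dose lay above the vehicle rats, while the 30 mg/kg group overlapped with both and the 100 mg/kg group with the vehicle rats only. The log2 difference with 200 mg/kg was 0.53 (95% interval 0.02 to 1.04, limma adjusted p = 0.55). Its other probe set was dim, with a value in only 1 vehicle rat, and gives no usable difference. Fdft1, squalene synthase, measured 7.62, 7.81 and 7.97 in vehicle rats, 8.06, 7.96 and 7.95 with 30 mg/kg, 8.22, 7.91 and 8.12 with 100 mg/kg, and 7.72, 8.23 and 8.68 with 200 mg/kg. Rat 1 of the top dose lay among the vehicle rats. The log2 difference was 0.41 (standard error 0.19, limma adjusted p = 0.56). It was 0.18 without rat 3 of the top dose and 0.65 without rat 1. Of 21 alternative fits, Fdft1 no longer had an unadjusted p of at most 0.05 in 16 and Hsd17b7 in 11.

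Acat2, the cytosolic acetoacetyl-CoA thiolase at the entry of the pathway, measured 5.87, 4.78 and 5.28 in vehicle rats, 5.64, 5.74 and 5.91 with 30 mg/kg, 6.62, 5.58 and 5.56 with 100 mg/kg, and 6.58, 6.01 and 5.41 with 200 mg/kg. Its log2 difference with 200 mg/kg was 0.69 (interval -0.07 to 1.46), with overlapping groups. Ebp, the sterol isomerase, measured 9.04, 9.18 and 9.33 in vehicle rats, 9.28, 9.19 and 9.37 with 30 mg/kg, 9.25, 9.25 and 9.21 with 100 mg/kg, and 9.25, 9.29 and 9.59 with 200 mg/kg. The difference was 0.19 (interval -0.03 to 0.42). Mvk, mevalonate kinase, measured 5.01, 6.02 and 5.40 in vehicle rats, 6.09, 5.30 and 5.12 with 30 mg/kg, 5.38, 6.40 and 4.65 with 100 mg/kg, and 6.26, 6.28 and 6.08 with 200 mg/kg. All 3 rats of the top dose lay above the vehicle rats, but the interval of the difference included 0 (0.73, interval -0.12 to 1.58), and another probe set of Mvk, with 12 values, gave 0.03. Groups did not overlap with 200 mg/kg for 6 of 34 members with 12 values, of which Mvk, Tm7sf2 (a sterol C14 reductase), Hsd17b7 and Thrsp lay above vehicle and Elovl5 and Mlxipl below. Over all probe sets with 12 values 15.6% did not overlap, and over named genes 17%.

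The other 13 sterol enzymes and transporters had log2 differences between -1.89 and 0.73 with 200 mg/kg, and the intervals of all 13 included 0. The extremes were Mvd, mevalonate decarboxylase, and Sqle, squalene epoxidase, which were dim and varied most between rats. Mvd measured -3.14 in rat 2 of the top dose, against 4.73 in rat 1 and 3.84 in rat 3. For Sc5d, sterol desaturase, and Stard4, a cholesterol carrier, the probe sets differed in direction, with 0.12 for one of Sc5d beside -0.06 for the probe set that stands for it, and 0.31 for one of Stard4 beside -0.02.

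None of the sterol sensing genes passed the threshold. Srebf2 measured 7.77, 7.75 and 7.25 in vehicle rats, 7.44, 6.86 and 7.44 with 30 mg/kg, 7.69, 7.68 and 7.02 with 100 mg/kg, and 7.29, 7.06 and 7.39 with 200 mg/kg. Its log2 difference with 200 mg/kg was -0.35 (interval -0.81 to 0.12), with overlap. Scap measured 7.49, 7.39 and 7.29 in vehicle rats, 7.86, 7.14 and 7.52 with 30 mg/kg, 7.48, 7.32 and 7.44 with 100 mg/kg, and 7.41, 7.45 and 7.58 with 200 mg/kg. The difference was 0.09 (interval -0.24 to 0.42). Insig2, the INSIG form expressed in fasted liver, measured 11.31, 11.00 and 11.18 in vehicle rats, 10.90, 11.57 and 10.95 with 30 mg/kg, 11.24, 10.89 and 11.46 with 100 mg/kg, and 11.03, 11.12 and 11.10 with 200 mg/kg, and differed by -0.08 (interval -0.46 to 0.29). Insig1, itself a target of SREBP-2, measured 8.07, 8.23 and 9.09 in vehicle rats, 9.23, 8.90 and 9.19 with 30 mg/kg, 9.49, 8.19 and 8.53 with 100 mg/kg, and 8.33, 7.38 and 8.38 with 200 mg/kg. Against vehicle its difference was -0.43 (interval -1.17 to 0.31), with overlap, and it was -0.10 without rat 2 of the top dose. All 3 rats of the top dose lay below all 3 rats of the lowest dose, a log2 difference of -1.08 (interval -1.82 to -0.33, limma adjusted p = 0.43).

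In the lipogenic arm Thrsp had the largest difference among those measured in all 12 rats. Thrsp, or Spot 14, is a nuclear protein of lipogenic cells whose transcription follows carbohydrate feeding and thyroid hormone. It measured 8.93, 7.63 and 8.69 in vehicle rats, 8.09, 7.32 and 8.67 with 30 mg/kg, 9.56, 8.37 and 8.17 with 100 mg/kg, and 9.97, 9.26 and 9.53 with 200 mg/kg. All 3 rats of the top dose lay above the vehicle rats. Their mean was 2.26-fold that of vehicle (log2 difference 1.17, interval 0.28 to 2.06, limma adjusted p = 0.39). The other probe sets gave 1.18 and 1.39. Against 30 mg/kg the log2 difference was 1.56 (limma adjusted p = 0.32), and the slope over dose was 0.69 per 100 mg/kg (limma adjusted p = 0.17). Without vehicle rat 2 the difference from vehicle was 0.78, and without rat 1 of the top dose 0.98, and in both fits the unadjusted p was above 0.05.

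Mlxipl, the gene of ChREBP, measured 7.60, 7.28 and 7.37 in vehicle rats, 7.27, 7.08 and 6.99 with 30 mg/kg, 7.06, 7.22 and 7.14 with 100 mg/kg, and 7.12, 7.02 and 7.24 with 200 mg/kg. All 9 dosed rats lay below all 3 vehicle rats, which was seen for 1 of 34 members with 12 values, against 1.37% of all probe sets and 1.54% of named genes. The gap was small, since the highest dosed rat (7.27) was next to the lowest vehicle rat (7.28). Averaged over the doses the log2 difference was -0.29 (standard error 0.10, limma adjusted p = 0.56). Without vehicle rat 1 it was -0.20, and the unadjusted p was then above 0.05.

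Elovl5, an elongase of polyunsaturated chains, measured 11.96, 11.49 and 11.31 in vehicle rats, 10.83, 11.78 and 11.04 with 30 mg/kg, 11.62, 11.18 and 11.24 with 100 mg/kg, and 11.17, 10.95 and 10.88 with 200 mg/kg. The rats of the top dose lay below the vehicle rats, and the log2 difference was -0.59 (interval -1.07 to -0.11, limma adjusted p = 0.44). The difference was -0.40 without vehicle rat 1, and in 4 of 21 alternative fits the unadjusted p was above 0.05. The other Elovl5 probe set gave -0.76. Elovl6, the elongase of saturated chains, was dim and measured 2.77, 2.68 and 4.78 in vehicle rats, 4.13, 2.04 and 3.66 with 30 mg/kg, 2.77, 4.75 and 3.24 with 100 mg/kg, and 4.32, 3.92 and 3.46 with 200 mg/kg. The difference was 0.49 (interval -1.10 to 2.09). Its other probe set had a value in only 1 rat of each of these groups and gives no usable difference.

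**Figure D2:**
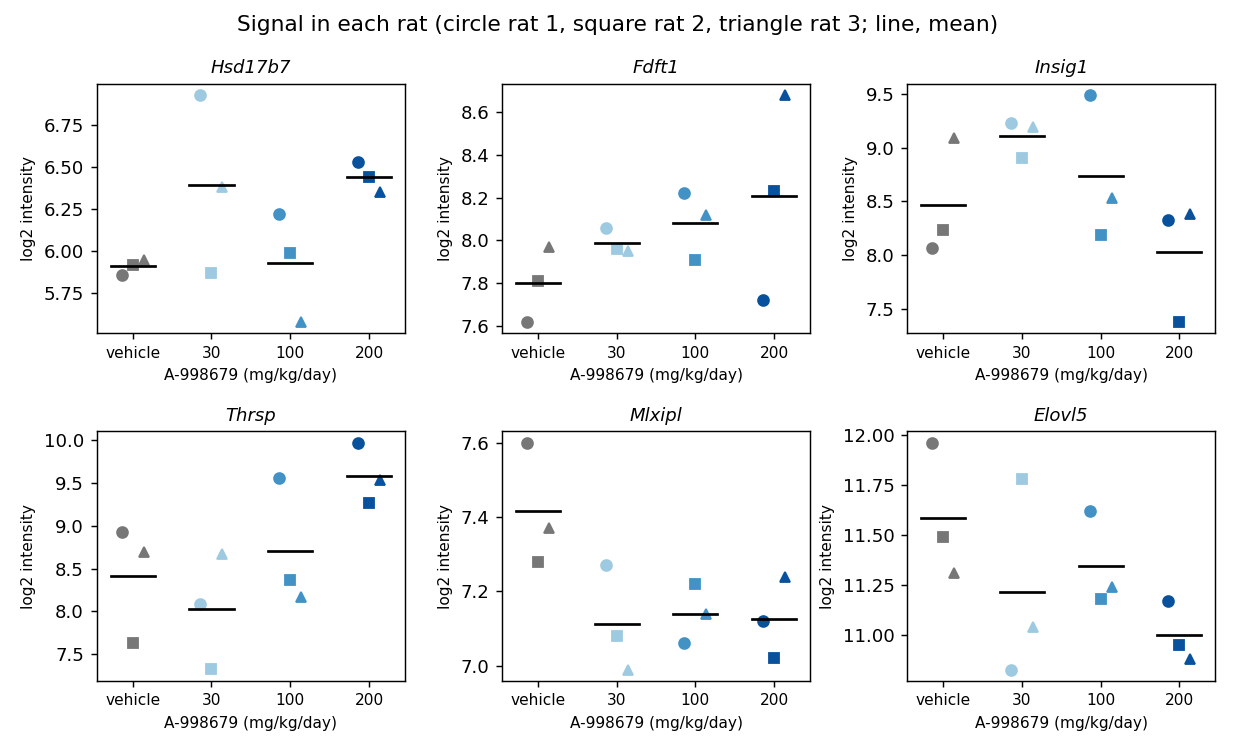
Log2 intensity (y axis) of 6 members in each rat by dose (x axis, mg/kg/day), with a symbol for each rat number and a line at the group mean. Thrsp in the 3 rats given 200 mg/kg (9.26 to 9.97) lies above the vehicle rats (7.63 to 8.93), and all dosed rats lie below the vehicle rats for Mlxipl.

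The intervals of the enzymes of fatty acid synthesis itself all included 0 with 200 mg/kg. Fasn, fatty acid synthase, measured 5.63, 4.73 and 5.49 in vehicle rats, 5.76, 5.14 and 4.88 with 30 mg/kg, 5.69, 5.11 and 4.78 with 100 mg/kg, and 6.20, 5.22 and 6.24 with 200 mg/kg. The log2 difference was 0.61 (interval -0.17 to 1.38), and another probe set gave -0.06. Acly, ATP citrate lyase, measured 7.98, 7.71 and 7.83 in vehicle rats, 8.19, 7.75 and 7.94 with 30 mg/kg, 7.67, 7.80 and 7.89 with 100 mg/kg, and 8.08, 7.83 and 7.99 with 200 mg/kg, a difference of 0.13 with the top dose (interval -0.15 to 0.40). Acaca, the cytosolic acetyl-CoA carboxylase, measured 6.95, 6.33 and 6.85 in vehicle rats, 7.42, 6.73 and 6.99 with 30 mg/kg, 7.26, 6.80 and 6.97 with 100 mg/kg, and 7.37, 6.52 and 6.65 with 200 mg/kg. Its difference was 0.14 (interval -0.39 to 0.67). Acacb, the carboxylase at mitochondria, had values in 8 of 12 rats, all dim. These were 3.02, -1.90 and 1.65 in vehicle rats, 1.20, 1.01 and -4.04 with 30 mg/kg, 2.89 in rat 3 with 100 mg/kg and 3.36 in rat 2 with 200 mg/kg. The fitted difference of 2.44 rests on that last rat (interval -3.36 to 8.24). For the acyltransferases Gpam and Dgat2, which build glycerolipids, the differences were 0.17 and 0.01.

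Srebf1 measured 9.05, 7.96 and 8.36 in vehicle rats, 8.25, 7.91 and 7.87 with 30 mg/kg, 8.62, 8.36 and 7.87 with 100 mg/kg, and 8.65, 7.63 and 8.80 with 200 mg/kg. With 200 mg/kg the log2 difference was -0.10 (interval -0.77 to 0.57), and another probe set gave 0.05. Its sign turned when vehicle rat 1 was left out (0.19) and when rat 2 of the top dose was left out (0.26). Of the desaturases of polyunsaturated chains, Fads2 measured 8.81, 8.71 and 8.51 in vehicle rats, 9.09, 8.87 and 9.13 with 30 mg/kg, 8.52, 8.73 and 8.74 with 100 mg/kg, and 8.41, 8.74 and 8.84 with 200 mg/kg. The difference was -0.01 with the top dose (interval -0.28 to 0.26) and 0.36 with the lowest dose, where all 3 rats lay above vehicle (limma adjusted p = 0.92). Fads1 measured 9.57, 9.59 and 9.48 in vehicle rats, 8.77, 9.53 and 9.63 with 30 mg/kg, 9.57, 9.08 and 9.46 with 100 mg/kg, and 9.54, 9.56 and 10.00 with 200 mg/kg, a difference of 0.15 with the top dose (interval -0.28 to 0.59).

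With 100 mg/kg, 0 of 35 members passed in limma, against 0.0221% of all probe sets and 0.0154% of named genes. There were 2 of 35 members (5.71%) at an unadjusted p of at most 0.05, both lower, against 5.98% of all probe sets and 6.89% of named genes. These were Mlxipl and Cyp51, the lanosterol demethylase, which was chosen after its values were seen. Cyp51 measured 8.31, 8.17 and 8.82 in vehicle rats, 8.79, 8.17 and 8.53 with 30 mg/kg, 8.10, 7.94 and 7.67 with 100 mg/kg, and 8.64, 8.03 and 8.42 with 200 mg/kg. The log2 difference with 100 mg/kg was -0.53 (limma adjusted p = 0.78). It was -0.34 without vehicle rat 3, and in 4 of 21 alternative fits the unadjusted p was above 0.05. These genes were also the 2 of 34 whose groups did not overlap, against 13.4% of all probe sets and 14.8% of named genes. The median log2 difference was -0.02 in the sterol arm and -0.05 in the lipogenic arm. Cholangiocyte markers had a summed intensity of 172 to 232 with 100 mg/kg and 122 to 169 in vehicle rats. Of these 5 markers, Krt19, Krt7 and Cftr were dim, with means under 3.84, the 25th percentile of values. Krt7 and Cftr were empty in some rats, so the sums do not hold the same genes. By gene, 4 had a higher and 1 a lower mean, with 0 at an unadjusted p of at most 0.05. The part of these markers in the values of the members was not tested.

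With 30 mg/kg, 0 of 35 members passed in limma, against 0.00739% of all probe sets and 0.00771% of named genes. There were again 2 (5.71%) at an unadjusted p of at most 0.05, Fads2 higher and Mlxipl lower, against 5.11% of all probe sets and likewise of named genes. Groups did not overlap for 3 of 34 members, Sc5d and Fads2 above vehicle and Mlxipl below, against 10.4% of all probe sets and 10.3% of named genes. The median log2 difference was 0.08 in the sterol arm and -0.13 in the lipogenic arm. Stellate cell markers had a summed intensity of 1520 to 1560 with 30 mg/kg and 1620 to 1920 in vehicle rats. Col3a1 weighed most in that sum, with a mean of 10.39, while the next brightest, Lrat, averaged 6.32. By gene, 3 of these 7 markers had a higher and 4 a lower mean, with 0 at an unadjusted p of at most 0.05. The part of these markers in the values of the members was not tested.

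For the mean of the 3 doses, 0 members passed in limma, against 0.061% of all probe sets and 0.0866% of named genes. Mlxipl and Elovl5, both lower, were the 2 of 35 (5.71%) at an unadjusted p of at most 0.05, against 6.76% of all probe sets and 7.72% of named genes. Elovl5 lost this in 10 of 21 alternative fits and Mlxipl in 1. Without vehicle rat 1 the log2 difference of Elovl5 was -0.22. Over dose as a slope, 0 of 34 members passed in limma, against 0.429% of all probe sets and 0.627% of named genes. Thrsp and Fdft1 with a positive and Elovl5 with a negative slope were the 3 (8.82%) at an unadjusted p of at most 0.05, against 10.9% of all probe sets and 12.6% of named genes. Of 21 alternative fits, Thrsp lost this in 0, Elovl5 in 10 and Fdft1 in 11. The slope of Fdft1 was 0.18 per 100 mg/kg, and 0.08 without rat 3 and 0.30 without rat 1 of the top dose. These comparisons share their rats with those of the single doses.

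Between 200 and 30 mg/kg, 0 of 35 members passed in limma, against 0.0185% of all probe sets and 0.0387% of named genes. There were 6 (17.1%) at an unadjusted p of at most 0.05, against 7.79% of all probe sets and 8.53% of named genes. Higher with 200 mg/kg were Thrsp and the sterol enzymes Dhcr7 (0.31), a sterol reductase, and Lss (0.58), lanosterol synthase. Lower were Insig1, Fads2 (-0.37) and Sc5d (-0.28). Lss lost its place in 15 of 21 alternative fits, Sc5d in 9, Dhcr7 in 4, Fads2 in 1 and Insig1 in 0. Dhcr7 was 0.18 without rat 1 and Sc5d -0.17 without rat 2 of the 200 mg/kg group. Lss was 0.41 without rat 3 and 0.88 without rat 1 of the 30 mg/kg group. Dhcr7, Lss and Sc5d were chosen after their values were seen. Groups did not overlap for 4 of 34 members, Thrsp above and Sc5d, Insig1 and Fads2 below, against 13.2% of all probe sets and 13.4% of named genes.

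Rats of the same group differed in these genes. The pooled SD within groups ran between 0.12 for Stard4 and 2.34 for Mvd, with a median of 0.31 over 34 members, beside 0.26 over 10841 named genes. In the sterol arm rat 2 of the 30 mg/kg group had the lowest value of its group for 14 of 22 genes, and rat 3 of the 100 mg/kg group for 16. Rat 1 of the 30 mg/kg group had the highest value for 15 genes, and rat 3 of the 200 mg/kg group for 13. In the lipogenic arm vehicle rat 1 had the highest value of the vehicle group for 9 of 12 genes and vehicle rat 2 the lowest for 9. Rat 1 was likewise highest of its group for 8 genes with 30 mg/kg, 7 with 100 mg/kg and 7 with 200 mg/kg. Rat 2 was lowest for 7 genes with 30 mg/kg and 6 with 200 mg/kg. With 100 mg/kg each rat was lowest for 4. These counts describe single rats, and the genes of an arm are not independent of each other.

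**Figure D3:**
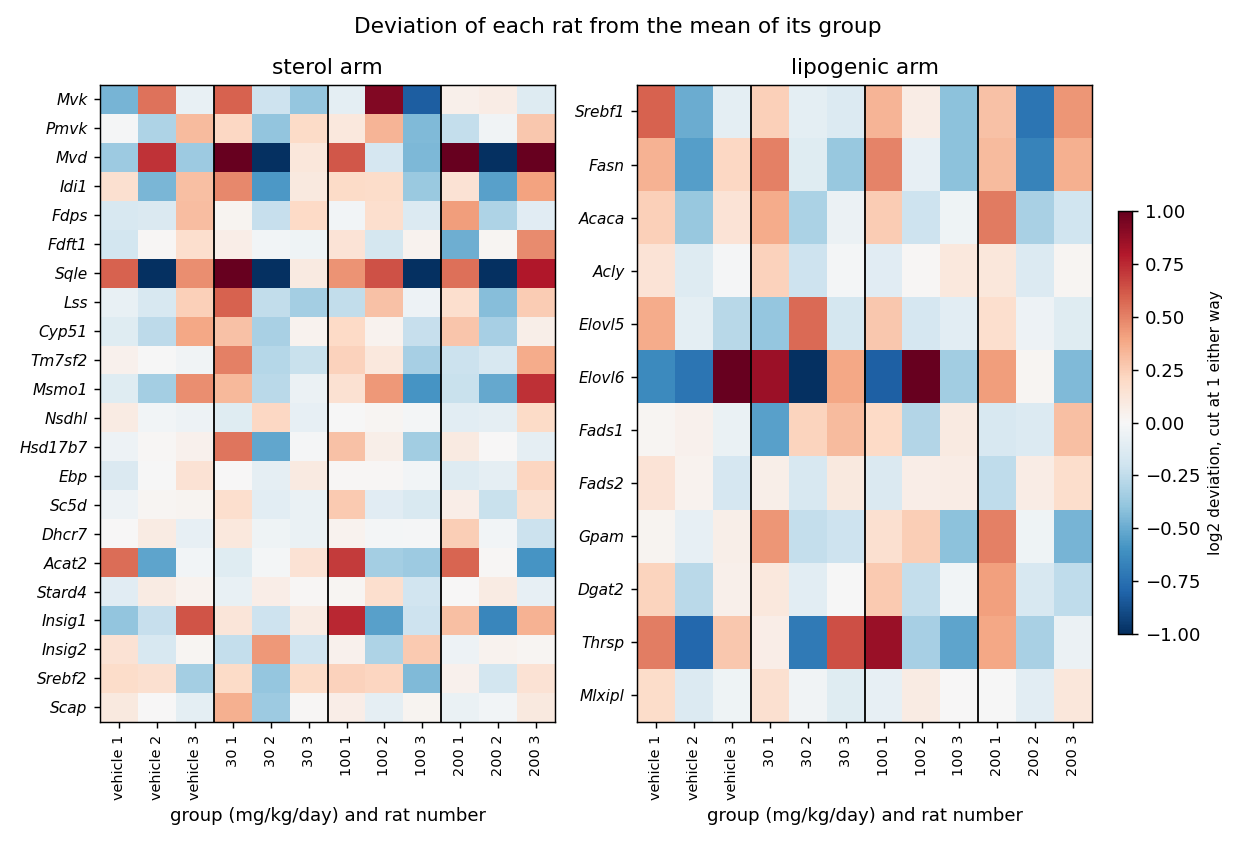
Log2 deviation of each rat from the mean of its group (colour, cut at 1 either way) for the members with a value in all 12 rats, with genes down the side and rats along the bottom by dose in mg/kg/day. Rat 3 of the 100 mg/kg group is lowest of its group for 16 of 22 sterol genes, and vehicle rat 2 is lowest of its group for 9 of 12 lipogenic genes.

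Further genes of the pathways were read from lists. Of 23 measured lipogenic genes beside the members, 1 rose and 0 fell with 200 mg/kg in limma. Over all probe sets 0.211% passed, and over named genes 0.34%. At an unadjusted p of at most 0.05 there were 7, 4 with a higher and 3 with a lower mean, against 8.74% of all probe sets and 10.5% of named genes. Me1, malic enzyme, which makes NADPH for fatty acid synthesis, measured 7.14, 7.30 and 7.29 in vehicle rats, 7.13, 7.24 and 7.34 with 30 mg/kg, 7.56, 7.82 and 7.61 with 100 mg/kg, and 8.61, 8.04 and 8.06 with 200 mg/kg. Me1 rose by 0.99 on the log2 scale with 200 mg/kg, or 1.99-fold (standard error 0.15, limma adjusted p = 0.015), and its slope over dose was 0.52 per 100 mg/kg (limma adjusted p = 0.0023). The slope passed in all 21 alternative fits. The difference with 200 mg/kg passed in 15 of 21, and was lost in limma with a floor under dim values (adjusted p = 0.079), without the variance trend (adjusted p = 0.19), with only the groups compared (adjusted p = 0.086), and without vehicle rat 1 (adjusted p = 0.068), rat 2 (adjusted p = 0.055) or rat 3 (adjusted p = 0.064). Its other probe set gave 1.01 (limma adjusted p = 0.077).

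Of 18 measured sterol genes beside the members 0 passed with 200 mg/kg in limma, and 0 had an unadjusted p of at most 0.05. The smallest p belonged to Abca1, the cholesterol efflux pump (log2 difference -0.77, limma adjusted p = 0.66), and to Lpcat3, a phospholipid acyltransferase (0.18, limma adjusted p = 0.71). For Abca1 the groups overlapped, at 7.47 to 9.32 in vehicle rats and 7.34 to 8.35 with 200 mg/kg. The other Abca1 probe sets averaged 7.54, 6.25 and 6.88 in vehicle rats and 7.55, 6.24 and 6.14 with 200 mg/kg.

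Lipogenic genes also follow the clock and fasting. Of 11 clock genes tested with 200 mg/kg 0 passed in limma, while 4 had an unadjusted p of at most 0.05, 2 in each direction, beside the same 8.74% and 10.5% over all features. Nr1d1, the repressor REV-ERB alpha, measured 6.13, 6.39 and 5.26 in vehicle rats, 5.74, 6.67 and 6.29 with 30 mg/kg, 7.58, 7.06 and 7.37 with 100 mg/kg, and 7.04, 7.75 and 7.63 with 200 mg/kg. Its difference with 200 mg/kg was 1.54 (limma adjusted p = 0.064). Its slope of 0.80 per 100 mg/kg passed (limma adjusted p = 0.041), as did the slopes of 0.429% of all probe sets and 0.627% of named genes. The slope passed in 9 of 21 alternative fits, and was lost in limma with the floor (adjusted p = 0.16), without the variance trend (adjusted p = 0.15), with the replicate block (adjusted p = 0.053) and with the mean over probe sets (adjusted p = 0.055). It was also lost without any 1 of the 3 vehicle rats, rat 3 with 30 mg/kg, rats 2 and 3 with 100 mg/kg, or rats 2 and 3 with 200 mg/kg, each left out singly. Npas2, a partner of BMAL1, differed by -1.47 (limma adjusted p = 0.16). Of 8 fasting genes 0 passed with 200 mg/kg in limma, while 5 had an unadjusted p of at most 0.05, 2 with a higher and 3 with a lower mean, again beside 8.74% of all probe sets and 10.5% of named genes. Angptl4, a lipoprotein lipase inhibitor, differed by -1.03 (limma adjusted p = 0.17) and Ppargc1a, a coactivator of gluconeogenesis, by 1.45 (limma adjusted p = 0.21). Ppargc1a was dim, at 3.46, 4.97 and 3.55 in vehicle rats, beside 5.15, 5.29 and 5.89 with 200 mg/kg. Vehicle rats 1 and 3 lay under 3.84, the 25th percentile of values. The part of clock phase or feeding state in the values of the members was not tested.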

How the data were processed

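Liver RNA of 12 rats was measured on 1 array each. The deposited values are log10 intensities for each probe set, produced by the authors with Rosetta Resolver 7.2. The base was inferred from the highest value (4.03), and background correction and scaling were not given in the sources read. Another deposited table holds the authors' own fold changes and was not used. Rats were grouped by their sample titles. Values were multiplied to the log2 scale, with empty values (12.1% of all) kept empty.

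limma 3.58.1 (R 4.3.3) fitted the 4 groups jointly, with eBayes and a variance trend. P-values were adjusted by Benjamini-Hochberg over every probe set tested, at a threshold of 0.05. The slope used the 20497 probe sets with 12 values. Intervals are 95% intervals. The probe set with the highest mean stood for a gene. Of the probe sets, 19691 had 1 gene symbol, 424 several and 9061 none. Values in every rat are given for the 5 members of each arm with the smallest p in the top dose or over all doses, for regulators and for 3 related pairs. Of further lists, genes past the threshold are named, otherwise the 2 with the smallest p. Members, lists and motifs were chosen with earlier results of these data known. Scripts were tested on simulated data. The number of arrays limits the precision. Promoters come from RefSeq GRCr8. Alternatives were other scalings, a floor (log2 3.84, the 25th percentile), a filter at that floor, no variance trend, array weights, only the groups compared, a replicate block, the mean over probe sets, the dose rank and leaving out each rat. Plots used matplotlib 3.10.9 (Python 3.11.15).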

Additional observations from a re-analysis of the deposited data

How the results depend on the processing

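In each of the 6 comparisons, 0 members passed the adjusted threshold in limma under every alternative run, the fits without 1 rat included. The counts at an unadjusted p of at most 0.05 did change, and the cause was not tested except where fewer rats or probe sets enter by construction. At 200 mg/kg against vehicle, the higher sterol genes (2) numbered 0 with the floor, without the variance trend and with the mean over probe sets, and 1 with the filter on dim probe sets, while 1 was lower with array weights. The lower lipogenic genes (2) numbered 1 with the floor, 0 without the trend and 1 with only the groups compared. At 100 mg/kg the lower sterol gene was lost (0) with the floor and without the trend, the lower lipogenic gene (0) without the trend and with the replicate block, and 1 sterol gene was higher with only the groups compared. At 30 mg/kg, 2 sterol genes were higher with array weights, 3 with only the groups compared, 1 with the replicate block and 1 with the mean over probe sets; the lower lipogenic genes numbered 0 without the trend, 2 with array weights and 0 with only the groups compared, and 3 lipogenic genes were higher with the block. For the mean of the doses, the lower lipogenic genes numbered 1 with the floor and 1 without the trend, and 1 sterol gene was higher with array weights and 1 in each arm with the block. For the slope, 0 sterol genes were higher with the floor, without the trend and with the mean over probe sets, 3 sterol and 2 lipogenic genes with the block, 1 sterol gene was lower with array weights and with the mean over probe sets, and 0 lipogenic genes were lower with the floor, without the trend and with the mean over probe sets. Between 200 and 30 mg/kg, 1 sterol gene was higher with quantile normalization, the floor, array weights, only the groups compared, the block and the mean over probe sets, and 0 without the trend; 1 was lower with the floor, without the trend and with only the groups compared; and 2 lipogenic genes were higher and 2 lower with the block. Correlations of same-numbered rats were -0.074 to 0.076, beside -0.058 to 0.092 for other numbers, and showed no pairing by rat number. Median log2 deviations from the group mean follow, vehicle first. In the lipogenic arm they were 0.20, 0.20, 0.22 and 0.30 for rat 1, and -0.20, -0.14, -0.04 and -0.14 for rat 2. In the sterol arm they were -0.05, 0.19, 0.15 and 0.06 for rat 1, and -0.02, -0.24, 0.05 and -0.12 for rat 2. Their sign was thus kept in the lipogenic arm only. Pairing within an arm was not tested. The replicate block gave 0 adjusted calls among the members.

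Without 1 rat, the counts ranged as follows. Higher sterol genes ranged from 0 to 3 at 200 mg/kg, 0 to 1 at 100 mg/kg, 0 to 4 at 30 mg/kg, 0 to 1 for the mean, 0 to 4 for the slope and 0 to 4 between 200 and 30 mg/kg. Lower sterol genes ranged from 0 to 1 at 200 mg/kg, 0 to 2 at 100 mg/kg, 0 to 1 at 30 mg/kg, for the mean and for the slope, and 1 to 3 between 200 and 30 mg/kg. Higher lipogenic genes ranged from 0 to 2 at 200 mg/kg, 0 to 1 at 30 mg/kg, 1 to 2 for the slope and 1 to 3 between 200 and 30 mg/kg, and lower ones from 0 to 2 at 200 mg/kg and for the mean and from 0 to 1 at 100 mg/kg, at 30 mg/kg and for the slope. The lipogenic median at 30 mg/kg ranged from -0.30 to 0.13, with 0.08 without vehicle rat 3 and 0.13 without rat 3 at 30 mg/kg; the other medians moved by less than 1 SD of the rats. Srebf1 at 200 mg/kg ranged from -0.35 to 0.26 and reversed to 0.19 without vehicle rat 1 and to 0.26 without rat 2 at 200 mg/kg. Dim probe sets such as Mvd, Acacb and Elovl6 limit what can be read from these arrays.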
